A study of Mus musculus with 12 samples.

Results

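Zmiz1 is a mouse gene on chromosome 14 whose chromatin was followed here through 31 ATAC-seq peaks, of the 48443 peaks counted in the series. ATAC-seq measures how readily the Tn5 transposase inserts into DNA, which marks open chromatin. A peak was taken as a Zmiz1 peak when Zmiz1 was its nearest protein-coding gene model within 100 kb. The gene was chosen by the DFMO values of its peaks, because peaks inside it were lower with DFMO than with vehicle in these same libraries, so its DFMO values below are a description and carry no test. Zmiz2, the paralog of Zmiz1, had 4 peaks by the same rule and was added as a related gene. The Zmiz1 gene model spans chr14:25457875-25666743 of build mm10 and that of Zmiz2 spans chr11:6388799-6406162. Of the 14545 genes with a peak, 11 had more peaks than Zmiz1.

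Naive CD4+ T cells (CD44-, CD62L+, CD25-) from spleens of C57BL/6 mice were stimulated with plate-bound antibodies to CD3 and CD28, at 1 µg/ml each. There were 4 culture groups, harvested at 68 h, each with 3 libraries from wild-type animals 1, 2 and 3. They were Th17n cells (non-pathogenic Th17 cells, given IL-6 at 25 ng/ml and TGF-beta1 at 2 ng/ml) with 100 µM DFMO, Th17n cells with vehicle, iTreg cells (induced regulatory T cells, given TGF-beta1 at 2 ng/ml) with 100 µM DFMO, and iTreg cells with vehicle. DFMO (difluoromethylornithine) inhibits ornithine decarboxylase, the first enzyme of polyamine synthesis. All cells were differentiated in culture, and accessibility was read in sorted live cells after freezing and thawing.

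ZMIZ1 is a nuclear coregulator related to the PIAS family of SUMO ligases, with which it shares an SP-RING type zinc finger. It binds transcription factors and acts with them as a coactivator; known partners include the androgen receptor, SMAD3, p53 and subunits of the BAF chromatin remodelling complex. In mouse T cell precursors and T cell leukaemia it is known as a cofactor of NOTCH1. Zmiz2 encodes a protein of the same family with the same kind of zinc finger.

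The annotation used here places a Zmiz1 start site on the plus strand at position 25459185, and peaks are named below by the distance of their centre from it. It gives no exons, so a peak can be placed inside the gene model but not in an intron or exon. Of the 31 peaks, 20 lay inside the model, 2 within 1 kb of its lower end and 9 outside, of which 8 came before the start and 1 after the end. Among all peaks 42.7% lay inside a gene model and 25.2% within 1 kb of a gene end. Zmiz1 peaks were 200 to 2153 bp wide with a median of 422 bp, against 480 bp over all peaks. The outermost peaks were at -95.8 kb and +211.4 kb. The first of them, 94.3 kb from the model, averaged 0.857 to 4.66 CPM in the 4 groups, and the next peak beyond it, 139.7 kb from the model and outside the rule, averaged 1.12 to 1.94 CPM. The last member lay 3.7 kb past the model and averaged 1.12 to 6.12 CPM, and the next peak, at a gene end of Ppif, averaged 42.8 to 64.5 CPM.

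Promoter sequences from RefSeq (GRCm38.p6, the 250 bases upstream of a start, 5′ to 3′ on the gene's strand) are printed for 3 annotated starts with a Zmiz1 peak, because their accessibility is compared below. Capitals mark CpG dinucleotides, in which mammalian DNA is methylated and which cluster at many promoters. Zmiz1os1 is a lncRNA gene on the minus strand that lies before Zmiz1 (chr14:25255014-25406786). For it, one of the starts at the peak at -80.6 kb and the start at the peak at -52.5 kb are shown.
Zmiz1, chr14:25458935-25459184, plus strand: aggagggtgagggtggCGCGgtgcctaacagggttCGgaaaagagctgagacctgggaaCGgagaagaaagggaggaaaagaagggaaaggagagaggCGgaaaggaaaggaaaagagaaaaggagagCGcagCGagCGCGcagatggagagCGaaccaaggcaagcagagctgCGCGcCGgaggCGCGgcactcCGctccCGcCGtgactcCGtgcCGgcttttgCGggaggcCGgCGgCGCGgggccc
Zmiz1os1 at -80.6 kb, chr14:25378519-25378768, minus strand: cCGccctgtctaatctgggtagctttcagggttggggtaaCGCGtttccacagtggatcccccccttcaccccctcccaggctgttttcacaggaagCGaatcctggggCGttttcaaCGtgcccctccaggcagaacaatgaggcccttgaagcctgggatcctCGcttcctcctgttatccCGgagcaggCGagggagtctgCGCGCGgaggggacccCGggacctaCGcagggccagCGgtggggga
Zmiz1os1 at -52.5 kb, chr14:25406787-25407036, minus strand: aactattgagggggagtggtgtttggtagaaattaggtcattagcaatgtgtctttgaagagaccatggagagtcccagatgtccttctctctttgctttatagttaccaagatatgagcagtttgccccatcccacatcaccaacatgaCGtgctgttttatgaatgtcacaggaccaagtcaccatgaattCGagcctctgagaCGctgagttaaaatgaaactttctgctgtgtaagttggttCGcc
The Zmiz1 window had a GC content of 64.8% and 25 CpG, and 89.3% of the 32851 mouse promoters of the same length had fewer CpG. The medians over those promoters were 52.4% GC and 6 CpG. The Zmiz1os1 window at -80.6 kb had 63.6% GC and 15 CpG, and the one at -52.5 kb had 44.0% GC and 4 CpG. On either strand, the Zmiz1 window held 1 match to TGGGAA, the core bound by the Notch pathway factor RBPJ, a motif present in 21.6% of promoters. It held no TATAAA (12.4% of promoters) and no GGGCGG (32.7% of promoters). The most frequent match was GGAAA, the NFAT core, with 6 matches (55.6% of promoters). GGAAG, the ETS core (64.1% of promoters), and TGANTCA, the AP-1 motif (6.7% of promoters), had 0 matches. The window at -52.5 kb held 1 TATAAA. A letter match is not a bound site.

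Accessibility is given as CPM, the count in a peak scaled to a library total of 1000000 counts. Library totals ran from 1020937 to 6496550 counts, a ratio of 6.36, with the shallowest library from Th17n with vehicle, animal 1. To check the labels, the peaks of 4 or 5 marker genes per cell type were summed. The Th17 list (Il17a, Il17f, Il23r and Ccr6) summed to 307 to 385 CPM in Th17n with DFMO and 462 to 512 CPM in Th17n with vehicle. In iTreg it summed to 107 to 154 CPM with DFMO and 162 to 208 CPM with vehicle. The Treg list (Foxp3, Il2ra, Ctla4, Ikzf2 and Ikzf4) ran from 941 to 1210 CPM, the lineages overlapped, and Foxp3 had no peak within 1 kb of a gene end. Its peaks within 1 kb of a gene end, at 3 of the 5 genes, summed to 156 to 196 CPM in Th17n with DFMO and 136 to 147 CPM in iTreg with DFMO, and to 251 to 266 CPM in Th17n with vehicle and 161 to 192 CPM in iTreg with vehicle. By these peaks the Treg list was lower in iTreg at either treatment, with no overlap, which goes against the label. The CD4 T cell list (Cd3e, Cd3g, Cd3d, Cd4 and Trac) ran from 161 to 230 CPM, with no peak at Trac.

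Lists of other cell types were summed in the same way. The B cell list had peaks at 2 of 4 genes, Pax5 and Ebf1, and none at Cd79a or Ms4a1. It summed to 223 to 239 CPM in Th17n with DFMO and 214 to 255 CPM in Th17n with vehicle, against 111 to 127 CPM in iTreg with DFMO and 121 to 166 CPM in iTreg with vehicle. The CD8 and NK cell list had peaks at 3 of 5 genes, with none at Cd8a or Ncr1, and ran from 135 to 181 CPM in Th17n and from 176 to 211 CPM in iTreg. The myeloid list had peaks at all 5 genes, none within 1 kb of a gene end of Csf1r, Itgam or Lyz2, and ran from 73.8 to 105 CPM in Th17n and from 62.1 to 82.9 CPM in iTreg. The part of such cells in the lineage differences below was not tested. In bulk libraries, fewer cells with an open region and a region less open in each cell cannot be told apart.

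**Figure D1:**
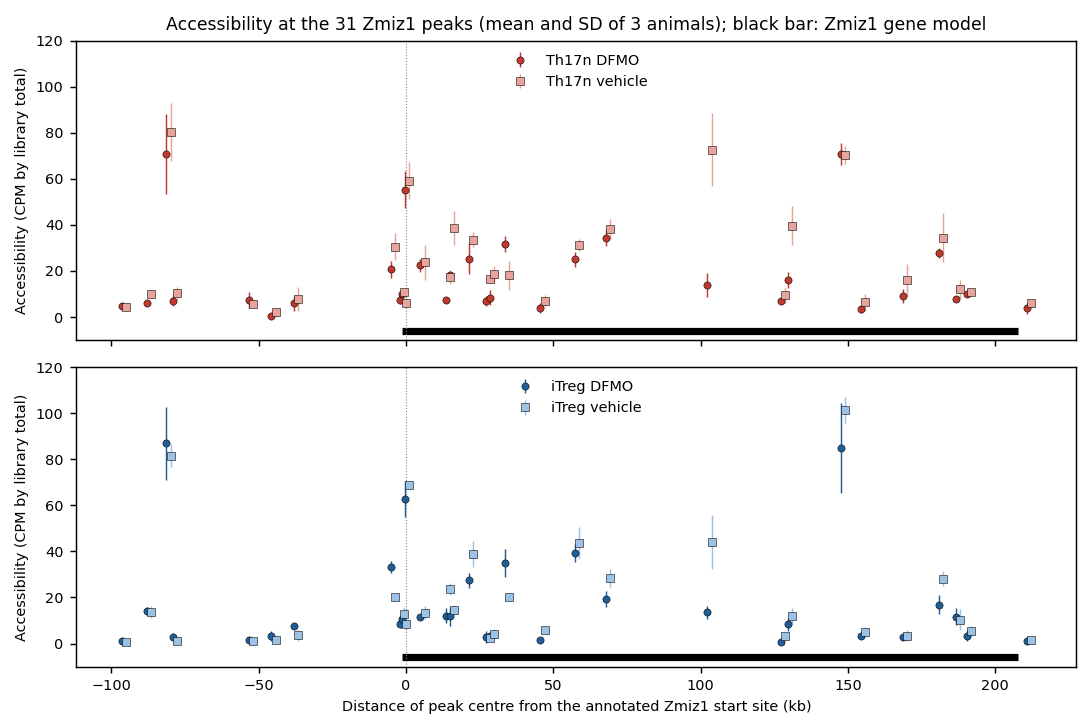
Mean accessibility (CPM by library total, bars ± SD of 3 animals) of the 31 Zmiz1 peaks against the distance of the peak centre from the Zmiz1 start site in kb, with DFMO as circles and vehicle as squares, Th17n above and iTreg below. Circle and square of a peak are set slightly apart for legibility, and the black bar is the gene model. The peak at +103.0 kb stands at 14.0 CPM in Th17n with DFMO and 72.7 CPM in Th17n with vehicle, while the start-site peak sits between 55.4 and 68.6 CPM in all 4 groups.

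By CPM per peak, the highest Zmiz1 peak was not the one over the start site. A peak of 2153 bp at +148.3 kb (chr14:25606412-25608565) averaged 81.9 CPM over the 12 libraries, or 38.0 CPM per kb of width. It lies 0.78 kb past Gm45915, a short protein-coding gene model nested in Zmiz1 (chr14:25603513-25605636). The peak at -80.6 kb (chr14:25377792-25379287), over the Zmiz1os1 start, averaged 80.0 CPM, or 53.5 CPM per kb. The peak over the Zmiz1 start site (chr14:25458879-25460391) averaged 61.5 CPM, or 40.7 CPM per kb. The highest density per kb was found in a narrow peak at -4.5 kb, at 79.3 CPM per kb. The lowest peak, at -45.0 kb (chr14:25414089-25414313), averaged 1.80 CPM and did not pass the filter on low counts, which left 30 Zmiz1 peaks to be fitted.

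Accessibility over the start site was compared between DFMO and vehicle. The start-site peak had 49.7, 51.9 and 64.5 CPM in Th17n with DFMO (animals 1, 2 and 3), against 53.9, 55.6 and 68.4 CPM in Th17n with vehicle. It had 70.4, 55.0 and 63.0 CPM in iTreg with DFMO, against 67.5, 69.4 and 68.9 CPM in iTreg with vehicle. The groups overlapped in both lineages, and the log2 difference of DFMO against vehicle was -0.11 ± 0.16 (SE) in Th17n and -0.11 ± 0.15 in iTreg. Within animals, the DFMO library was the lower one in animals 1, 2 and 3 in Th17n. In iTreg it was lower in animals 2 and 3 and higher in animal 1. The fit did not use this pairing.

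Small peaks at -1.4 kb (chr14:25457689-25457955) and -0.8 kb (chr14:25458273-25458489) lay within 1 kb of the lower end of the model. The peak at -1.4 kb had 7.47, 9.09 and 5.86 CPM in Th17n with DFMO, against 9.79, 10.5 and 11.7 CPM with vehicle. The iTreg libraries had 10.6, 7.59 and 7.33 CPM with DFMO, against 9.21, 13.1 and 15.8 CPM with vehicle. Its DFMO libraries lay below the vehicle libraries in Th17n and overlapped them in iTreg, and the log2 difference was -0.48 ± 0.35 in Th17n and -0.63 ± 0.34 in iTreg. The peak at -0.8 kb had 10.4, 9.95 and 9.12 CPM in Th17n with DFMO, against 4.90, 8.77 and 4.99 CPM with vehicle, with the DFMO libraries on the higher side. In iTreg it overlapped, with 9.98, 9.02 and 12.9 CPM with DFMO, against 6.14, 8.81 and 10.5 CPM with vehicle.

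The largest difference with DFMO in Th17n lay deep inside the gene, at +103.0 kb (chr14:25561693-25562744, 1051 bp), where no other annotated gene lies. This peak had 9.75, 19.9 and 12.4 CPM in Th17n with DFMO, against 54.9, 84.7 and 78.7 CPM in Th17n with vehicle. In iTreg it had 14.1, 16.1 and 10.6 CPM with DFMO, against 33.2, 42.1 and 56.4 CPM with vehicle. All 6 DFMO libraries lay below all 6 vehicle libraries. With DFMO the means of the lineages were close, at 14.0 ± 5.27 CPM in Th17n and 13.6 ± 2.82 CPM in iTreg (SD, n = 3 each), while with vehicle they were 72.7 ± 15.8 CPM in Th17n and 43.9 ± 11.7 CPM in iTreg. The vehicle mean was 5.19 times the DFMO mean in Th17n and 3.23 times in iTreg. The log2 difference of DFMO against vehicle was -2.41 ± 0.24 in Th17n and -1.74 ± 0.24 in iTreg.

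In edgeR's quasi-likelihood test over all peaks, 6 of 30 Zmiz1 peaks (20.0%) passed an adjusted p of 0.05 as lower with DFMO in Th17n, where 4.29% of all tested peaks did. All 6 lay inside the gene model, and 5.54% of all tested peaks inside a gene model passed. No Zmiz1 peak passed as higher, where 4.50% of all peaks did; 1 had an unadjusted p under 0.05 in that direction, and DESeq2 called 0. In iTreg 4 Zmiz1 peaks (13.3%) passed as lower, where 4.73% of all peaks and 5.54% of those inside a gene model did, and again all were inside the model. In iTreg 2 Zmiz1 peaks passed as higher, where 3.83% of all peaks did. Losses with DFMO chose this gene, so nothing is read from these shares. Leaving out animal 3 of Th17n with vehicle brought the lower count in Th17n to 3. The lower count in iTreg came to 1 without animal 3 of iTreg with DFMO, animal 2 of iTreg with vehicle or animal 3 of iTreg with vehicle, and to 2 without animal 3 of Th17n with vehicle. The higher count in iTreg came to 0 without any one of those 3 iTreg libraries, and to 1 without animal 2 of iTreg with DFMO.

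**Figure D2:**
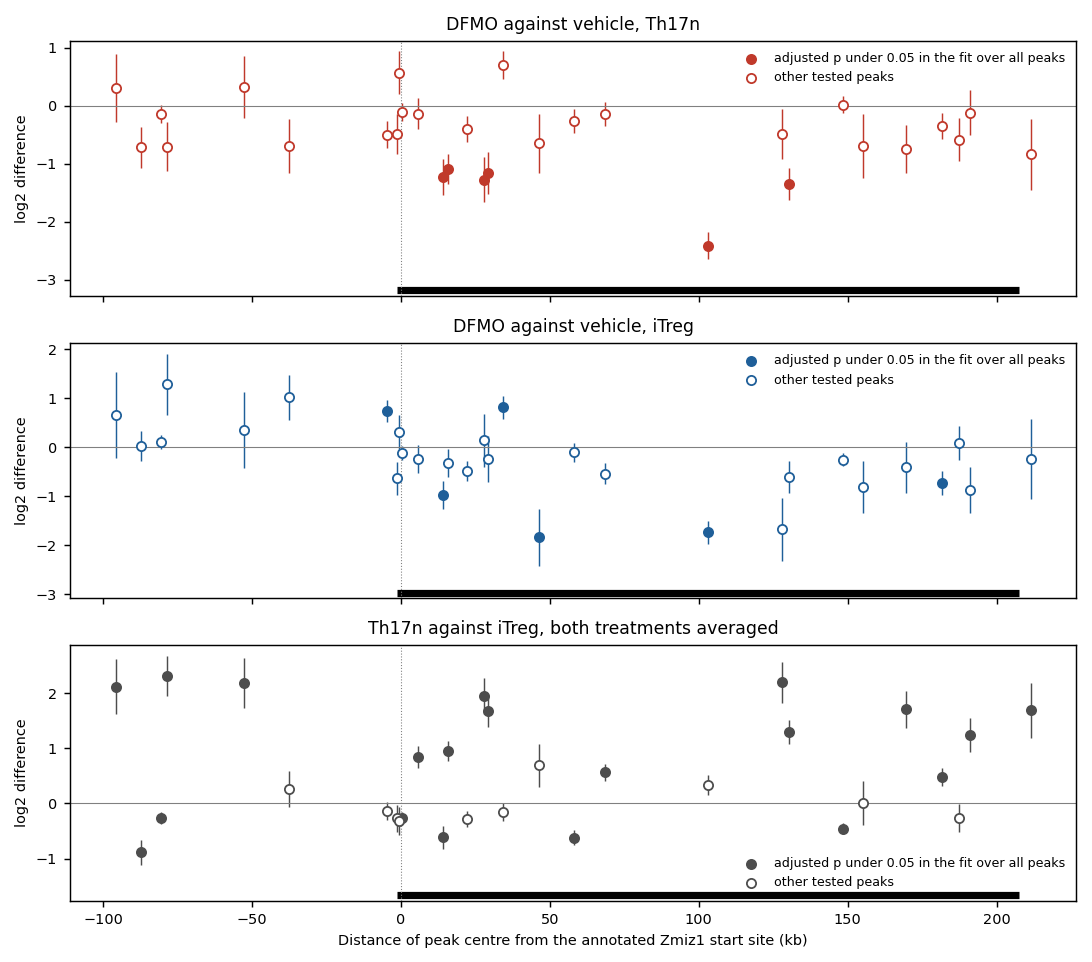
The log2 difference ± SE of the 30 fitted Zmiz1 peaks against distance from the Zmiz1 start site in kb, for DFMO against vehicle in Th17n (top), DFMO against vehicle in iTreg (middle) and Th17n against iTreg averaged over both treatments (bottom). Filled points had an adjusted p under 0.05 in the fit over all peaks, and the black bar is the gene model. The lowest DFMO value in Th17n is -2.41 at +103.0 kb, and in the bottom panel filled points lie both above 0 (14 peaks) and below 0 (6 peaks).

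The other 5 lower peaks in Th17n lay at +14.1, +15.7, +27.9, +29.2 and +130.4 kb. The peak at +14.1 kb (chr14:25473066-25473510) had 7.80, 7.79 and 6.51 CPM in Th17n with DFMO, against 14.7, 17.1 and 20.6 CPM with vehicle. The same peak in iTreg had 15.3, 9.02 and 12.02 CPM with DFMO, against 21.0, 23.6 and 26.5 CPM with vehicle. DFMO and vehicle libraries were apart in both lineages, with log2 differences of -1.23 ± 0.31 in Th17n and -0.98 ± 0.28 in iTreg. This peak and the one at +103.0 kb were the 2 that passed as lower in both lineages, which is 33.3% of the Th17n list and 50.0% of the iTreg list. In iTreg the call at +14.1 kb was kept in 13 of 17 alternative settings, and that at +103.0 kb in 17.

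The peak at +15.7 kb (chr14:25474670-25475164) had 19.5, 17.3 and 18.2 CPM in Th17n with DFMO, against 30.4, 41.4 and 44.3 CPM with vehicle, a log2 difference of -1.09 ± 0.25. In iTreg it had 14.1, 7.12 and 14.1 CPM with DFMO, against 12.3, 15.3 and 16.6 CPM with vehicle, a log2 difference of -0.32 ± 0.28. The Th17n groups were apart and the iTreg groups overlapped. The peak at +130.4 kb (chr14:25589120-25589953), which also overlaps the lncRNA genes Gm32497 and 4931406H21Rik, had 14.3, 13.8 and 20.2 CPM in Th17n with DFMO, against 30.4, 42.8 and 46.1 CPM with vehicle (-1.35 ± 0.27). Its iTreg values were 11.7, 6.64 and 6.45 CPM with DFMO, against 8.18, 15.0 and 12.1 CPM with vehicle (-0.60 ± 0.32). Here too the Th17n groups were apart and the iTreg groups overlapped.

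The peaks at +27.9 kb (chr14:25486907-25487265) and +29.2 kb (chr14:25488162-25488599) were low in iTreg with either treatment. At +27.9 kb Th17n had 6.50, 5.19 and 9.12 CPM with DFMO, against 14.7, 17.7 and 16.7 CPM with vehicle (-1.27 ± 0.39). At the same peak iTreg had 5.87, 0.949 and 2.05 CPM with DFMO, against 2.05, 2.79 and 2.43 CPM with vehicle (0.14 ± 0.53, and -0.58 without animal 1 of iTreg with DFMO). At +29.2 kb Th17n had 5.20, 11.7 and 8.46 CPM with DFMO, against 16.7, 16.8 and 22.6 CPM with vehicle (-1.16 ± 0.36), and iTreg had 4.11, 3.32 and 2.93 CPM with DFMO, against 6.14, 2.36 and 4.45 CPM with vehicle (-0.24 ± 0.47). At both peaks the Th17n groups were apart and the iTreg groups overlapped. Differences between the lineages in the DFMO difference are given without a test at Zmiz1, since the same values chose the gene.

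**Figure D3:**
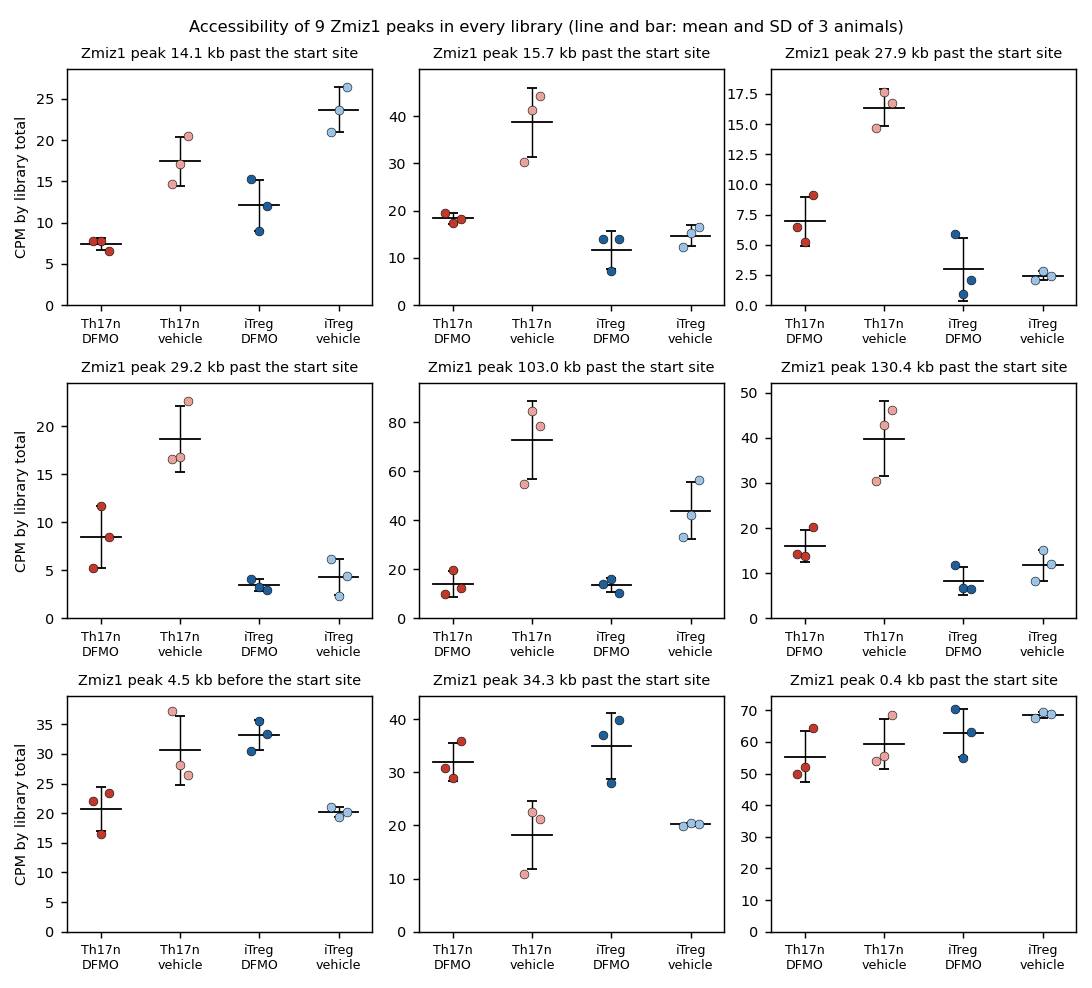
Accessibility (CPM by library total) in each of the 12 libraries for 9 Zmiz1 peaks: the 6 lower with DFMO in Th17n, the 2 higher with DFMO in iTreg and the start-site peak. Points are animals, and line and bar give mean and SD of 3 animals; each panel has its own axis from 0. At +103.0 kb the DFMO libraries sit at 9.75 to 19.9 CPM, below the vehicle libraries at 33.2 to 84.7 CPM.

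A further 2 peaks passed as lower in iTreg and not in Th17n. The DFMO difference in Th17n minus that in iTreg was 1.19 ± 0.78 (log2, SE) at the first and 0.39 ± 0.33 at the second, given without a test because DFMO values chose the gene. The peak at +46.3 kb (chr14:25505354-25505558) had 2.94, 0.949 and 1.17 CPM in iTreg with DFMO, against 5.11, 7.09 and 4.85 CPM with vehicle, a log2 difference of -1.84 ± 0.58 that rests on few counts. In Th17n it had 6.17, 2.16 and 3.26 CPM with DFMO, against 9.79, 4.93 and 6.46 CPM with vehicle (-0.65 ± 0.51, and -1.31 without animal 1 of Th17n with DFMO). The peak at +181.5 kb (chr14:25640369-25640909) had 13.5, 21.4 and 15.5 CPM in iTreg with DFMO, against 27.1, 25.6 and 31.9 CPM with vehicle (-0.73 ± 0.24). In Th17n it had 30.5, 26.4 and 26.7 CPM with DFMO, against 22.5, 37.6 and 43.2 CPM with vehicle (-0.34 ± 0.23). The iTreg groups were apart and the Th17n groups overlapped at both peaks. The second passed in 5 of 17 alternative settings and the first in 11.

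At 2 peaks iTreg was higher with DFMO. The peak at +34.3 kb (chr14:25493223-25493831), which lies between the lower peaks, had 37.0, 28.0 and 39.9 CPM in iTreg with DFMO, against 19.9, 20.4 and 20.2 CPM with vehicle (0.82 ± 0.23). In Th17n it had 30.9, 29.0 and 35.8 CPM with DFMO, against 10.8, 22.5 and 21.1 CPM with vehicle (0.70 ± 0.24). DFMO libraries were above vehicle libraries in both lineages, and with the animal as a replicate block this peak passed in Th17n too, a higher count of 1 in place of 0. The peak at -4.5 kb (chr14:25454488-25454818), before the gene, had 30.5, 35.6 and 33.4 CPM in iTreg with DFMO, against 21.0, 19.3 and 20.2 CPM with vehicle (0.75 ± 0.22). In Th17n it was on the opposite side, with 22.1, 16.4 and 23.4 CPM with DFMO, against 37.2, 28.2 and 26.4 CPM with vehicle (-0.50 ± 0.24).

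Taken over the locus, most peaks lay on the lower side in Th17n. Of the 30 fitted peaks 25 had a log2 difference below 0 in Th17n and 19 in iTreg, with medians of -0.49 and -0.24, where the medians over all tested peaks were 0.01 and -0.01. The DFMO and vehicle libraries were apart on the lower side at 9 of the 30 in Th17n and 7 in iTreg. Over all tested peaks of the series, this held for 16.0% in Th17n and 13.1% in iTreg. On the higher side they were apart at 2 of the 30 in Th17n and 4 in iTreg, where 13.6% and 10.6% of all tested peaks were. The sign was below 0 in both lineages at 18 peaks, above 0 in both at 4 and opposite at 8. In iTreg the 22 peaks inside the model or at its end had a median of -0.45. Of the 8 fitted peaks outside it, 7 were above 0, with a median of 0.51, and 1 passed as higher. In Th17n the median was -0.48 inside the model or at its end and -0.60 outside it. These are descriptions of values that served to choose the gene. The choice rested on peaks inside the gene, so nothing is read from the split by position.

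The summed accessibility of the locus is given with and without the 6 peaks lower in Th17n. Those 6, and the peak at +103.0 kb among them, were picked by their DFMO difference in these libraries. Their falling share with DFMO in Th17n follows from that choice, so the sums are a description. All 31 peaks together had 550 ± 46.5 CPM in Th17n with DFMO and 750 ± 57.4 CPM in Th17n with vehicle, a ratio of 0.734. In iTreg they had 544 ± 18.0 CPM with DFMO and 623 ± 51.0 CPM with vehicle, a ratio of 0.872 (SD, n = 3 each). The 6 lower peaks of Th17n made up 13.0% ± 1.37 of this sum in Th17n with DFMO and 27.0% ± 3.13 in Th17n with vehicle, and 9.55% ± 1.82 in iTreg with DFMO and 16.1% ± 1.56 in iTreg with vehicle. The other 25 peaks had 479 ± 44.2 CPM in Th17n with DFMO and 546 ± 25.3 CPM in Th17n with vehicle. In iTreg those 25 had 492 ± 8.79 CPM with DFMO and 522 ± 33.4 CPM with vehicle. Without the peak at +103.0 kb alone, the ratio for the rest was 0.792 in Th17n and 0.915 in iTreg.

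To ask how the locus differs between the lineages, Th17n and iTreg were compared over both treatments. The choice of the gene did not use this contrast, but it used the same libraries. A peak more open in Th17n is also easier to call lower with DFMO there. The shares and the median below are therefore not independent of the choice. Here 14 of 30 Zmiz1 peaks (46.7%) were higher in Th17n, where 30.0% of all tested peaks were, and 6 (20.0%) were lower, where 25.6% were. The median log2 difference was 0.41, against -0.07 over all tested peaks. Peaks of both directions alternated along the locus. With library totals alone, DESeq2 size factors or DESeq2's own test, 4 peaks were lower in place of 6, because both the start-site peak and the peak at -80.6 kb no longer passed.

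Several of the peaks higher in Th17n had few counts in iTreg. Such a peak can pass the filter on low counts through Th17n alone, so nothing is read from its low level in iTreg. The smallest p belonged to a peak of 200 bp at -78.5 kb (chr14:25380612-25380812), within Zmiz1os1. It had 4.55, 7.79 and 8.46 CPM in Th17n with DFMO, 7.84, 12.9 and 11.2 CPM in Th17n with vehicle, 4.70, 1.42 and 2.05 CPM in iTreg with DFMO and 1.02, 1.29 and 0.809 CPM in iTreg with vehicle. Its Th17n libraries were higher apart from an overlap between the lowest Th17n library and the highest iTreg library, and the log2 difference was 2.31 ± 0.37 (adjusted p = 6.89e-07). At +130.4 kb the difference was 1.29 ± 0.21 (adjusted p = 9.25e-07), and at +27.9 kb it was 1.95 ± 0.32 (adjusted p = 1.57e-06). These 2 peaks were among the lower peaks with DFMO in Th17n. A further peak at +127.9 kb (chr14:25586967-25587169), beside the one at +130.4 kb, ran from 5.88 to 12.6 CPM in Th17n and from 0 to 4.08 CPM in iTreg, without overlap (2.19 ± 0.38, adjusted p = 2.76e-06).

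Of the 6 peaks lower with DFMO in Th17n, 4 were higher in Th17n than in iTreg: those at +27.9 and +130.4 kb, the one at +29.2 kb (1.68 ± 0.29, adjusted p = 3.44e-06) and the one at +15.7 kb (0.95 ± 0.19, adjusted p = 3.58e-05). The shares higher in Th17n were 46.7% of Zmiz1 peaks and 30.0% of all tested peaks. The Th17n libraries enter both comparisons, and a peak more open in Th17n is easier to call lower there. Nothing is therefore read from this overlap. The peak at +14.1 kb was lower in Th17n, although it lies next to the one at +15.7 kb (-0.62 ± 0.21, adjusted p = 0.0114). The peak at +103.0 kb, where DFMO gave the largest difference in Th17n, did not pass between the lineages averaged over both treatments (0.34 ± 0.18, adjusted p = 0.0991). That average joins unlike values: the log2 difference was 0.67 ± 0.20 with vehicle alone and -0.0003 ± 0.31 with DFMO alone. These 2 values are given without a test, because the same libraries chose the gene. The remaining peaks higher in Th17n were those at -95.8, -52.5, +5.6, +68.5, +169.5, +181.5, +191.0 and +211.4 kb, with log2 differences from 0.48 to 2.19.

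The 2 Zmiz1os1 starts shown above differed in the lineage comparison. The start near -52.5 kb, whose promoter has 4 CpG, lies at a peak (chr14:25406442-25406862) that ran from 3.57 to 10.4 CPM, with a median of 5.88 CPM, in Th17n. In iTreg it ran from 0 to 2.05 CPM with a median of 1.38 CPM, below all Th17n libraries (2.19 ± 0.45, adjusted p = 6.03e-05). The start shown near -80.6 kb, whose promoter has 15 CpG, shares its peak with another 2 annotated starts, whose promoters have 14 and 7 CpG. That peak ran from 55.8 to 94.0 CPM in Th17n, with a median of 73.8 CPM, and from 68.8 to 98.8 CPM in iTreg, with a median of 84.6 CPM. The lineages overlapped there, with a log2 difference of -0.26 ± 0.11 (adjusted p = 0.0349) that kept its call in 7 of 17 alternative settings. The Zmiz1 start-site peak had the same size of difference, -0.26 ± 0.11 (adjusted p = 0.0347), and also kept its call in 7 of 17.

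Other peaks lower in Th17n were broad or distal. The peak at +148.3 kb ran from 66.2 to 75.5 CPM in Th17n, with a median of 70.0 CPM, and from 71.5 to 108 CPM in iTreg, with a median of 98.3 CPM (-0.46 ± 0.10, adjusted p = 1.33e-04). Its libraries with DFMO had 70.5, 66.2 and 75.5 CPM in Th17n and 75.7, 107 and 71.5 CPM in iTreg. Its libraries with vehicle had 69.5, 74.8 and 67.0 CPM in Th17n and 97.2, 99.5 and 108 CPM in iTreg. The peak at +58.0 kb (chr14:25516667-25517618) ran from 22.9 to 33.2 CPM in Th17n and from 35.8 to 51.7 CPM in iTreg, without overlap (-0.62 ± 0.14, adjusted p = 2.09e-04). The peak at -87.3 kb (chr14:25371657-25372170) ran from 5.21 to 11.2 CPM in Th17n and from 11.8 to 16.8 CPM in iTreg, also without overlap (-0.89 ± 0.23, adjusted p = 0.00104).

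The remaining members passed with DFMO in neither lineage and not in the lineage comparison over both treatments. They were the peaks at -37.4, +22.1, +155.2 and +187.2 kb and the small peaks at -1.4 and -0.8 kb. With vehicle alone, the log2 difference of Th17n against iTreg at -37.4 kb was 1.13 ± 0.44, and the libraries overlapped. Averaged over both treatments it was 0.27 ± 0.33. The vehicle value is given without a test, because the same libraries chose the gene. Of the remaining members the peak at +22.1 kb (chr14:25480903-25481582) was the highest. It had 18.5, 25.5 and 31.9 CPM in Th17n with DFMO, against 37.2, 31.7 and 31.7 CPM with vehicle, and 27.6, 24.2 and 30.8 CPM in iTreg with DFMO, against 32.2, 42.6 and 41.6 CPM with vehicle. Its iTreg groups were apart, on the lower side, and its log2 differences with DFMO were -0.40 ± 0.22 in Th17n and -0.48 ± 0.21 in iTreg.

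Zmiz2 showed no DFMO difference that passed the test. None of its 4 peaks passed in edgeR or DESeq2 in either lineage, and 1 peak in each had an unadjusted p under 0.05. The peak at the lower gene end (chr11:6388773-6389762) had 74.4, 71.0 and 84.6 CPM in Th17n with DFMO, against 40.2, 74.3 and 62.0 CPM with vehicle (0.31 ± 0.15, adjusted p = 0.208). In iTreg it had 99.2, 87.8 and 87.6 CPM with DFMO, against 91.5, 86.6 and 79.2 CPM with vehicle (0.11 ± 0.14, adjusted p = 0.697). The groups overlapped in both lineages. The 2 peaks inside the model had log2 differences with DFMO from -0.11 to 0.47, and the peak at chr11:6402689-6403289 passed in no contrast. At the other, chr11:6391580-6391958, the iTreg libraries with DFMO lay above those with vehicle (0.47 ± 0.25, adjusted p = 0.253). Such separation was seen at 10.6% of all tested peaks.

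Between the lineages 3 of 4 Zmiz2 peaks passed. A peak 7.5 kb outside the model (chr11:6380865-6381254) had 12.3, 11.7 and 13.0 CPM in Th17n with DFMO and 21.5, 16.5 and 16.7 CPM in Th17n with vehicle. In iTreg it had 0.587, 0.474 and 0 CPM with DFMO, from 1, 1 and 0 counts, and 1.02, 1.94 and 1.82 CPM with vehicle, from 2, 9 and 9 counts. All Th17n libraries were far above all iTreg libraries (4.24 ± 0.38, adjusted p = 2.56e-13). With DFMO the difference at this peak was -0.50 ± 0.35 in Th17n (adjusted p = 0.403) and -2.43 ± 0.85 in iTreg (adjusted p = 0.063, and 0.047 without animal 1 of iTreg with vehicle). Its DFMO libraries lay below the vehicle libraries in both lineages, as at 16.0% of all tested peaks in Th17n and 13.1% in iTreg. Inside the model, the peak at chr11:6391580-6391958 had 10.1, 13.0 and 19.5 CPM in Th17n with DFMO and 11.8, 15.2 and 14.1 CPM in Th17n with vehicle, against 31.1, 30.4 and 27.0 CPM in iTreg with DFMO and 18.9, 22.8 and 22.0 CPM in iTreg with vehicle. It was lower in Th17n (-0.92 ± 0.19, adjusted p = 5.46e-05), as was the gene-end peak (-0.42 ± 0.10, adjusted p = 6.56e-04).

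**Figure D4:**
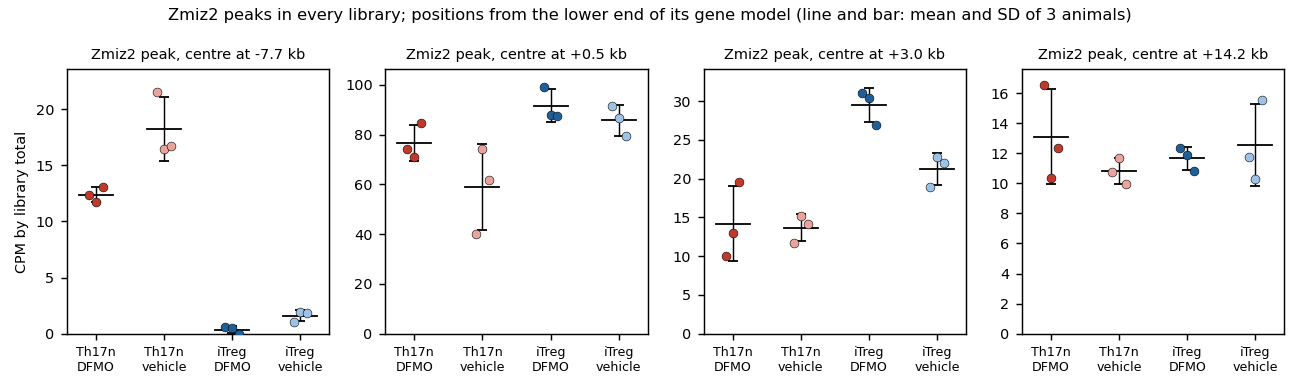
Accessibility (CPM by library total) of the 4 Zmiz2 peaks in each of the 12 libraries, named by the distance of the peak centre from the lower end of the gene model in kb. Points are animals, and line and bar give mean and SD of 3 animals; each panel has its own axis from 0. The leftmost peak sits at 11.7 to 21.5 CPM in Th17n and at 0 to 1.94 CPM in iTreg.

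Peaks around Zmiz1 were examined to see how far the losses reached. Within 500 kb of the gene model, 27 further peaks were nearest to another gene or to none within 100 kb, and 21 of them were fitted. In Th17n 2 were lower and 1 higher with DFMO, with a median of -0.23, where 4.29% of all tested peaks were lower and 4.50% higher. In iTreg 0 were lower and 2 higher, with a median of 0.13, where 4.73% of all tested peaks were lower and 3.83% higher. Both lower peaks of Th17n lay inside Anxa11, which encodes a calcium-dependent phospholipid-binding annexin. One (chr14:25857015-25858279) averaged 28.6 ± 8.46 CPM in Th17n with DFMO and 53.6 ± 6.89 CPM in Th17n with vehicle (-0.86 ± 0.22, adjusted p = 0.00723), and 25.9 ± 6.43 CPM in iTreg with DFMO and 24.3 ± 1.59 CPM in iTreg with vehicle (0.13 ± 0.22). The other (chr14:25861693-25862380) averaged 26.7 ± 5.91 CPM in Th17n with DFMO and 45.8 ± 1.52 CPM in Th17n with vehicle (-0.77 ± 0.25, adjusted p = 0.0387). The gene-end peak of Ppif, which encodes the mitochondrial isomerase cyclophilin D and is the next gene past Zmiz1, averaged 54.0 ± 5.15 CPM in Th17n with DFMO and 42.8 ± 3.16 CPM in Th17n with vehicle and did not pass (0.33 ± 0.17, adjusted p = 0.221). The 3 higher peaks had no protein-coding gene within 100 kb. They were chr14:25161869-25162326 in Th17n (1.94 ± 0.53, adjusted p = 0.0141), and chr14:25033013-25033297 (2.07 ± 0.39, adjusted p = 4.04e-04) and chr14:25185001-25185190 (1.72 ± 0.44, adjusted p = 0.00948) in iTreg.

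Genes of the pathways that ZMIZ1 is known for were followed as lists. Beside them, 4.29% of all tested peaks were lower and 4.50% higher with DFMO in Th17n, 4.73% were lower and 3.83% higher in iTreg, and the median log2 differences were 0.01 and -0.01. Among 5 genes of the PIAS and SP-RING family, 0 of 38 tested peaks were lower and 1 (2.63%) was higher with DFMO in Th17n (unadjusted p under 0.05 at 6 lower and 4 higher), and 6 (15.8%) were lower and 0 higher in iTreg (9 and 1), with medians of -0.09 and -0.23. The gene-end peak of Pias3, a SUMO ligase named as an inhibitor of STAT3, averaged 51.5 ± 3.71 CPM in iTreg with DFMO and 84.0 ± 7.45 CPM in iTreg with vehicle (-0.69 ± 0.15, adjusted p = 0.00186). Peaks inside Nsmce2, the SUMO ligase of the SMC5/6 complex (-0.90 ± 0.20, adjusted p = 0.00196), and Pias2 (-1.50 ± 0.37, adjusted p = 0.00688) were also lower in iTreg. Another peak inside Nsmce2 was the 1 higher in Th17n (0.71 ± 0.19, adjusted p = 0.0143). Among 13 genes of the SUMO machinery, 1 of 31 peaks (3.23%) was lower and 2 (6.45%) higher with DFMO in Th17n (unadjusted p under 0.05 at 2 lower and 4 higher), and 1 (3.23%) was lower and 0 higher in iTreg (2 and 0), with medians of 0.10 and 0.07. A peak inside Sae1, a subunit of the SUMO-activating enzyme, was higher in Th17n (1.07 ± 0.21, adjusted p = 5.30e-04), as was one inside Senp1, a SUMO protease (1.12 ± 0.32, adjusted p = 0.0198). A peak inside Senp6, another SUMO protease, was lower in Th17n (-1.43 ± 0.43, adjusted p = 0.0275). Another peak inside Senp1 was the 1 lower in iTreg (-1.06 ± 0.22, adjusted p = 0.00136).

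Among 9 Notch receptors and ligands, 3 of 31 tested peaks (9.68%, beside 4.29% of all tested peaks) were lower with DFMO in Th17n and 0 higher (beside 4.50%). The unadjusted p was under 0.05 at 4 lower and 2 higher peaks, and the median was 0.008. The 3 lower peaks were at receptors, but the share of the 31 peaks that lie at receptors was not counted. A peak inside Notch1 averaged 29.9 ± 6.85 CPM in Th17n with DFMO and 58.7 ± 5.23 CPM in Th17n with vehicle (-0.96 ± 0.20, adjusted p = 0.00137). A peak inside Notch2 averaged 3.54 ± 1.94 CPM in Th17n with DFMO and 15.9 ± 2.55 CPM in Th17n with vehicle (-2.19 ± 0.45, adjusted p = 0.0011). A peak outside Notch3 averaged 3.18 ± 1.30 CPM in Th17n with DFMO and 8.96 ± 2.75 CPM in Th17n with vehicle (-1.46 ± 0.44, adjusted p = 0.0264). In iTreg 1 peak, outside Notch3, was lower (-3.15 ± 0.63, adjusted p = 9.30e-04) and 1, inside Notch2, was higher (1.25 ± 0.39, adjusted p = 0.0344), with a list median of -0.13. Each is 3.23% of the list, beside 4.73% lower and 3.83% higher among all tested peaks in iTreg.

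Further along the Notch pathway the calls went both ways. Of 62 peaks at genes that modify or cleave the receptors, 4 (6.45%) were lower and 3 (4.84%) higher in Th17n, and 1 (1.61%) was lower and 2 (3.23%) higher in iTreg, with medians of 0.04 and 0.01. All tested peaks had 4.29% lower and 4.50% higher in Th17n, and 4.73% lower and 3.83% higher in iTreg. A gene-end peak of Lfng, a glycosyltransferase that modifies Notch, averaged 43.7 ± 4.25 CPM in Th17n with DFMO and 75.9 ± 1.55 CPM in Th17n with vehicle (-0.76 ± 0.16, adjusted p = 0.00137). A peak inside Adam17, a protease that sheds membrane proteins, was higher in both lineages (0.97 ± 0.26, adjusted p = 0.013 in Th17n; 0.81 ± 0.23, adjusted p = 0.0185 in iTreg). Of 111 peaks at genes of the nuclear complex, 6 (5.41%) were lower and 3 (2.70%) higher in Th17n, and 4 (3.60%) were lower and 7 (6.31%) higher in iTreg, with medians of -0.15 and -0.11. A peak outside Rbpj, the DNA-binding factor of the pathway, averaged 6.03 ± 1.86 CPM in Th17n with DFMO and 21.1 ± 2.44 CPM in Th17n with vehicle (-1.75 ± 0.35, adjusted p = 9.59e-04). A different peak outside Rbpj averaged 2.36 ± 0.585 CPM in iTreg with DFMO and 7.98 ± 0.266 CPM in iTreg with vehicle (-1.67 ± 0.50, adjusted p = 0.0267). Of 42 peaks at Notch target genes of T cells, 0 were lower and 1 higher in each lineage (unadjusted p under 0.05 at 4 lower and 3 higher in Th17n, 6 lower and 2 higher in iTreg), with medians of -0.03 in both. That 1 lay inside Dtx1, which encodes Deltex, and averaged 22.6 ± 3.54 CPM in Th17n with DFMO and 12.4 ± 3.08 CPM in Th17n with vehicle (0.94 ± 0.29, adjusted p = 0.031). The same peak averaged 42.6 ± 5.85 CPM in iTreg with DFMO and 15.0 ± 6.25 CPM in iTreg with vehicle (1.60 ± 0.26, adjusted p = 5.89e-05).

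The list of 9 genes taken as partners of ZMIZ1 had 78 tested peaks. With DFMO in Th17n, 5 (6.41%) were lower and 3 (3.85%) higher. In iTreg 6 (7.69%) were lower and 2 (2.56%) higher, and the medians were 0.10 in Th17n and 0.02 in iTreg. The shares of all tested peaks were 4.29% lower and 4.50% higher in Th17n, and 4.73% lower and 3.83% higher in iTreg. A broad peak inside Smad3, a transcription factor of TGF-beta signalling, averaged 62.4 ± 8.59 CPM in iTreg with DFMO and 99.8 ± 8.31 CPM in iTreg with vehicle (-0.65 ± 0.14, adjusted p = 0.00196). A peak inside Ets1, a transcription factor of lymphocytes, averaged 28.8 ± 6.26 CPM in iTreg with DFMO and 57.4 ± 9.42 CPM in iTreg with vehicle (-0.96 ± 0.20, adjusted p = 0.00106). A peak outside Smarca4, the ATPase of the BAF complex, averaged 45.5 ± 1.26 CPM in Th17n with DFMO and 27.6 ± 6.37 CPM in Th17n with vehicle (0.66 ± 0.19, adjusted p = 0.0195). In the lineage comparison, the 7 lists had between 25.8% and 42.1% of peaks higher in Th17n and between 21.6% and 43.5% lower, beside 30.0% and 25.6% of all tested peaks.

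Genes were also ranked by how closely their summed accessibility followed that of Zmiz1. Over the 12 libraries, log2 CPM of the summed peaks was correlated with that of Zmiz1 for 2835 genes with at least 5 peaks. The most alike were Ssbp3 (Pearson r = 0.911), Tent5c (0.904), Rbl1 (0.887), Raph1 (0.875) and Abcb1a (0.871). Summed accessibility of Ssbp3, which encodes a single-stranded DNA-binding protein, averaged 91.7 CPM in Th17n with DFMO, 122 CPM in Th17n with vehicle, 96.1 CPM in iTreg with DFMO and 108 CPM in iTreg with vehicle. That of Abcb1a, a drug efflux transporter, averaged 54.1 CPM in Th17n with DFMO, 105 CPM in Th17n with vehicle, 58.1 CPM in iTreg with DFMO and 73.1 CPM in iTreg with vehicle. The 12 points come from 4 groups and share library depth and treatment, so r is a description.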

How the data were processed

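ATAC-seq accessibility was read from the count table that the authors deposited: unscaled counts for 48443 peaks of build mm10 in 12 libraries. The submitters' processing notes name Trimmomatic, FastQC, Bowtie2 and MACS2 without version; the sources used here give neither their roles and settings nor whether starts count from 0 or 1. Starts are printed as deposited. All count columns were mapped by title to a library, and 0 were left unused.

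Each peak was given the protein-coding gene model closest to it, up to 100 kb away (RefSeq, GRCm38.p6, the assembly of mm10); genes with overlapping models cannot be told apart by distance, and nearness does not show which gene a region acts on. The table has no strand or exons. Strand and start site of Zmiz1 come from RefSeq's promoter table. CPM is the count scaled to a library total of 1000000. Counts were tested with edgeR 4.0.16 (R 4.3.3, limma 3.58.1): filterByExpr by group (minimum count 10), which kept 43726 peaks and left 4717 untested, TMM factors (0.960 to 1.046), glmQLFit and glmQLFTest on 4 group means without a block, and Benjamini-Hochberg adjustment over all tested peaks with a threshold of 0.05. The procedure was tested on simulated data. DFMO was set against vehicle within each lineage, and Th17n against iTreg over the average of both treatments. Log2 differences are edgeR estimates. Their SE is the absolute log2 difference divided by the square root of the F statistic of the test. Values are given with 3 animals per group, and SD covers the spread among them. SE and p-values rest on dispersions estimated over all 12 libraries, without the pairing by animal. PCR reads carry no molecular identifiers.

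The labels give an animal number shared by the 4 groups, which pairs the libraries by animal. With group means subtracted, same-animal libraries (18 pairs) had r between -0.054 and 0.076, and for 7 of 12 libraries the most similar library of another group came from the same animal. Replicates of a group had r between 0.882 and 0.960 in log2 CPM. The smallest chi-square per degree of freedom for 2 replicates of a group was 2.03, so no library repeats another of its group. Libraries of different groups were not compared in this way.

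Members and gene lists were chosen with earlier results of these data known. A few list genes are not reported here and were left out of the counts and sums of their lists. By the rule for named peaks, values per library are given for the 6 Zmiz1 peaks with the most negative difference in Th17n among those past the threshold, those past it upward, those at a gene end, the highest by CPM, the 3 with the smallest lineage p, and the Zmiz2 peaks at a gene end or past the threshold. Other peaks with values, among them those at the start sites, at +22.1 kb, +46.3 kb and +181.5 kb, were added after their values were seen. Up to 3 genes per list and contrast with the smallest p could be named. Log2 CPM for the ranking of alike genes used a prior count of 2. Alternatives were other scaling, no filter, DESeq2 1.42.0, a replicate block, members inside the model and each library left out.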

Additional observations from a re-analysis of the deposited data

Results flagged for a closer look

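At the peak at -4.5 kb from the Zmiz1 start site (chr14:25454488-25454818), DFMO libraries lay below all vehicle libraries in Th17n and above all vehicle libraries in iTreg. The DFMO difference was -0.50 ± 0.24 (log2, SE) in Th17n and 0.75 ± 0.22 in iTreg, so the difference in Th17n minus that in iTreg was -1.24 ± 0.33. This difference between the lineages is given without a test, because DFMO values chose the gene.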

How the results depend on the processing

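Of the Zmiz1 and Zmiz2 counts, the following moved; the cause was not tested. With DFMO in Th17n, 6 Zmiz1 peaks were lower and 3 to 6 with 1 library left out, and 0 were higher and 0 to 1 with 1 library left out. The replicate block by animal gave 1 higher peak in Th17n and changed no other count of calls at Zmiz1 or Zmiz2. With DFMO in iTreg, 4 peaks were lower, 2 with the DESeq2 Wald test, and 1 to 4 with 1 library left out; 2 were higher, 1 among members inside the gene model, and 0 to 2 with 1 library left out. For Th17n against iTreg, leaving out 1 library gave 13 to 15 higher and 4 to 7 lower peaks, and the other settings 14 to 15 higher and 4 to 6 lower, apart from 10 higher and 4 lower among members inside the model. For Zmiz2 with DFMO in iTreg, 0 peaks were lower and 0 to 1 with 1 library left out.

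The Th17n losses at +15.7, +103.0 and +130.4 kb kept their call in 17 of 17 settings. That at +14.1 kb kept it in 16, that at +27.9 kb in 13 and that at +29.2 kb in 12. Without animal 2 of Th17n with DFMO, the difference at +103.0 kb was -2.82. Uncalled Zmiz2 values near 0 changed sign. The peak at 6391580 with DFMO in Th17n gave 0.007 with the replicate block and -0.324 to 0.133 with 1 library left out (0.133 without animal 1 of Th17n with DFMO, 0.032 without animal 2 of Th17n with vehicle). The peak at 6402689 gave -0.242 to 0.107 with DFMO in iTreg with 1 library left out (0.107 without animal 3 of iTreg with vehicle). Between the lineages it gave -0.179 to 0.029 (0.014 without animal 2 of Th17n with DFMO, 0.029 without animal 3 of iTreg with vehicle).

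A peak of a few CPM holds few counts in the shallowest libraries, so differences at such peaks were not detectable at this depth unless they were large. DFMO values of Zmiz1 cannot support its choice.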
